A study of Mus musculus with 5 samples.

Results

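Brain microvessels were examined for the genes with which endothelium slows, holds and attracts leukocytes. The set comprised 10 genes chosen by symbol, out of 34615 symbols in the whole data set, and each symbol matched 1 Ensembl identifier of mouse assembly NCBIM37. They were the adhesion receptors *Icam1*, *Icam2* and *Vcam1*, the selectins *Sele* and *Selp*, the chemokines *Ccl2*, *Cxcl12* and *Cx3cl1*, and the junctional or cell surface molecules *Cd99l2* and *Alcam*. Vessel fragments had been isolated from the brains of 3 WT and 2 Ins2-AKITA mice, and each mouse gave 1 library. The Ins2-AKITA mice were heterozygous for a mutated insulin 2 gene, whose misfolded product kills pancreatic beta cells so that the males become hyperglycemic, and the WT mice were their littermates with wildtype genotype. All 5 mice were males on a C57BL6 background, between 26 and 38 weeks of age, and the labels name no treatment. The fragments of both genotypes had been pulled out with beads against PECAM1 and hold endothelial cells with attached pericytes and astrocyte end-feet.

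Leukocytes leave the blood in steps. Selectins on activated endothelium catch them, chemokines on the vessel surface activate their integrins, the integrins then bind ICAM1, ICAM2 and VCAM1, and junctional molecules such as CD99L2 and ALCAM take part in the passage through the wall. In the healthy brain the endothelium is known for low levels of selectins, ICAM1 and VCAM1, which inflammatory cytokines acting through NF-kB can raise.

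The expression unit was FPKM, a fragment count scaled to exon length and to sequencing depth, so that levels of different genes are compared per length. The estimated depth was 1127142 to 2850627 fragments per mouse, with WT replicate 3 the deepest, and 0 FPKM means that no fragment was counted at that depth. The identity of the tissue was checked first. The 15 endothelial identity genes, among them *Pecam1*, *Cdh5* and *Tek*, were above 0 in every mouse, with a summed level of 547 to 792 FPKM in WT and 393 to 531 FPKM in Ins2-AKITA mice. Blood leukocyte markers summed to 2.41 to 7.41 FPKM in WT and 1.60 to 3.26 FPKM in Ins2-AKITA mice, and 4 of the 11, *S100a8*, *Cd3d*, *Camp* and *Nkg7*, were at 0 in all mice. Markers of other brain cells were present as well. Neuron markers summed to 793 to 872 FPKM in WT and 799 to 966 FPKM in Ins2-AKITA mice. Oligodendrocyte markers summed to 1962 to 2645 and 2123 to 2336 FPKM, and choroid plexus markers to 719 to 2095 and 1000 to 1860 FPKM. Which cells the RNA of each gene came from was not tested. WT replicate 1 stood apart from the other mice in several cytokine-responsive genes, which are described beside *Icam1*.

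The levels spanned a wide range in the WT mice. *Cx3cl1* was the highest at 73.1 ± 5.58 FPKM (SD, n = 3), followed by *Alcam* at 39.7 ± 6.28, *Cxcl12* at 37.5 ± 19.3, *Vcam1* at 20.1 ± 5.58, *Icam2* at 16.5 ± 2.31, *Cd99l2* at 16.1 ± 2.61 and *Icam1* at 8.28 ± 4.11 FPKM (SD, n = 3 each). *Ccl2*, *Sele* and *Selp* came last, near the limit of detection. The lowest WT value of *Cx3cl1* lay above the highest of *Alcam*, and the same held for *Cd99l2* over *Icam1* and for *Icam1* over *Ccl2*. All other neighbours in this order overlapped between mice. By mean WT level *Cx3cl1* ranked 1084 and *Icam1* 9174 among the 16286 genes with a mean of at least 1 FPKM over the 5 mice, which were the genes tested.

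**Figure D1:**
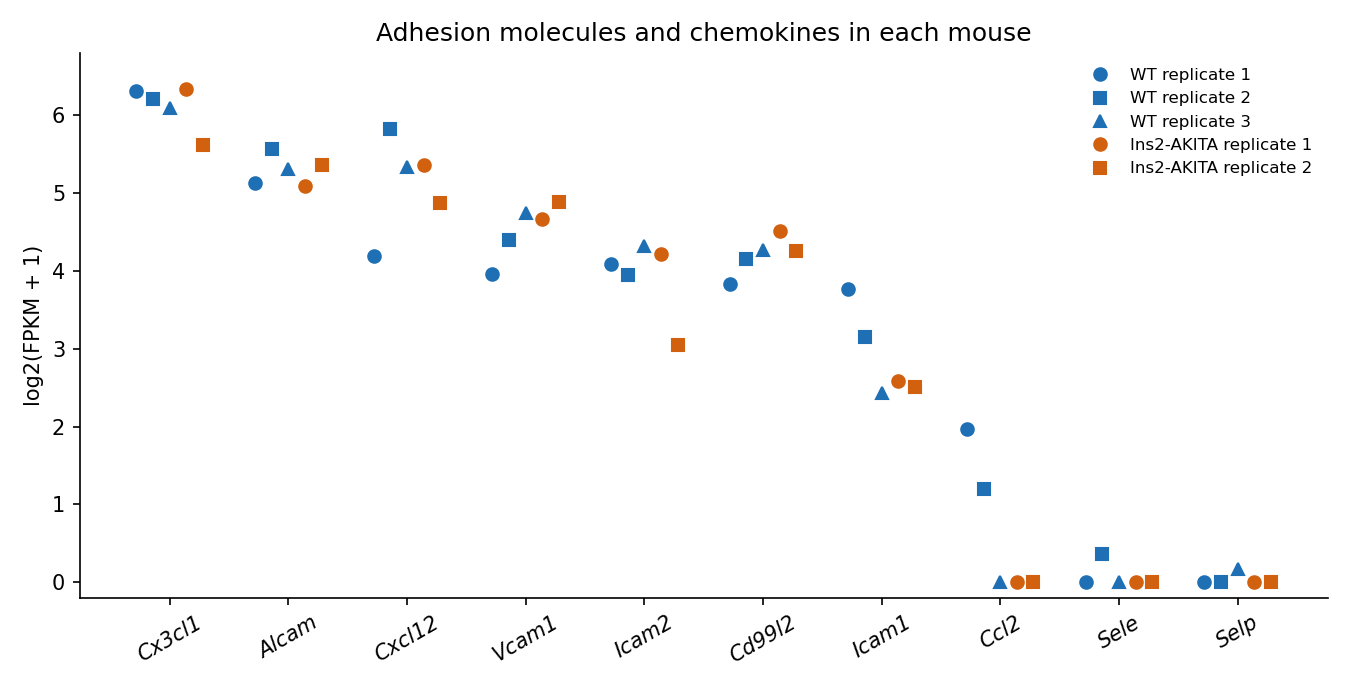
The vertical axis gives log2(FPKM + 1) for each of the 10 genes, ordered by mean WT level, with 1 point per mouse (blue, WT; orange, Ins2-AKITA; the marker shape gives the replicate). *Cx3cl1* lies between 48.3 and 80.2 FPKM, *Sele* and *Selp* are above 0 in 1 mouse each, and for none of the 7 tested genes do both orange points lie above, or both below, all blue ones.

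Whether the genes of leukocyte recruitment differ between hyperglycemic and normoglycemic brain vessels was tested with limma on log2(FPKM + 1), fitted to all 16286 genes. Of the 10 genes 7 passed the filter on low values, and *Ccl2*, *Sele* and *Selp* did not. None of the 7 was called higher or lower at an adjusted p of 0.05, where 0.0246% of all tested genes were called, and their smallest adjusted p was 0.90. At an unadjusted limma p under 0.05 there were also 0 of the 7, against 4.46% of all genes (1.53% higher and 2.93% lower). In none of the 7 did both Ins2-AKITA values lie outside the WT range on the same side, whereas this was so for 19.5% of all tested genes (9.24% above and 10.3% below). *Vcam1* and *Cd99l2* had a positive and the other 5 a negative log2 fold change, with a median of -0.11 beside -0.03 for all tested genes. With 3 mice against 2 an exact permutation test cannot give a p below 0.1. That the labels number separate animals is all that is known of the replicates, and p-values measure the spread between these 5 libraries.

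*Icam1* (ENSMUSG00000037405) encodes the main endothelial ligand of the leukocyte integrin LFA-1 and is a classical target of NF-kB. On NCBIM37 it spans positions 20820404 to 20833241 of chromosome 9, on the plus strand. The 250 bases before its RefSeq transcription start, which hold 1 match each to an NF-kB motif and a STAT-type palindrome, are shown because the level of *Icam1* is set beside those of NF-kB and STAT3 pathway genes below. They match chr9:20820134-20820383 of NCBIM37, plus strand. The window ends short of the start annotated on NCBIM37, so positions are counted from its own end, with -1 as the last base shown. Capitals mark GGAAATTCC at -153 to -145 and TTCCCGGAA, a match to TTCNNNGAA, at -42 to -34.
*Icam1*: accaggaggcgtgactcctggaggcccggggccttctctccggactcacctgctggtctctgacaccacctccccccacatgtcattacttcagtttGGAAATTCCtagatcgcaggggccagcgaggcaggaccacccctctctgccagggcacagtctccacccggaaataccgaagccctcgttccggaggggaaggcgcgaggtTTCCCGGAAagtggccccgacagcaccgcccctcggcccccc
The search covered both strands and the motifs GGAAATTCC, TTCNNNGAA, TGACTCA and TATAAA and a longer NF-kB consensus, and the matches in this window do not overlap. Of 32851 RefSeq promoter windows of this length, 0.286% held GGAAATTCC and 7.02% held TTCNNNGAA. A match is a stretch of letters and was not tested as a binding site.

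In the WT mice *Icam1* was at 12.6, 7.85 and 4.40 FPKM, and in the Ins2-AKITA mice at 4.98 and 4.71 FPKM. WT replicate 1 was the highest of the 5 mice and WT replicate 3 the lowest, so that both Ins2-AKITA mice lay inside the WT range, near its lower end. The gene has 1 annotated transcript, from which 34, 24 and 29 fragments were estimated for the WT mice and 13 and 14 for the Ins2-AKITA mice. The exact 95% Poisson interval of the count in WT replicate 1 was 23.5 to 47.5 fragments, and intervals of this kind cover counting error only. The mean was 1.71-fold higher in WT than in Ins2-AKITA mice, with a log2 fold change of -0.57 (standard error 0.43, 95% interval -1.60 to 0.47, adjusted p = 0.90 from limma, exact two-sided permutation p = 0.4). Without WT replicate 1 the log2 fold change was -0.24, and without WT replicate 3 it was -0.91 (adjusted p = 0.98 and 0.58 from limma).

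WT replicate 1 also held the highest values of other cytokine-responsive genes, which were singled out after their values had been seen. *Nfkbia*, the NF-kB inhibitor that NF-kB itself induces, was at 42.5, 20.7 and 15.3 FPKM in the WT mice against 13.8 and 17.3 FPKM in the Ins2-AKITA mice. *Socs3*, the feedback inhibitor of STAT3 signaling, was at 8.47, 2.29 and 1.81 FPKM in the WT mice against 4.19 and 1.34 FPKM in the Ins2-AKITA mice, and *Stat3* itself was at 62.7 FPKM in WT replicate 1 against 24.3 to 39.5 in the other mice. The steepest contrast within the WT mice was found for the acute-phase genes *Lcn2* and *Lrg1*. *Lcn2* was at 41.0 FPKM in WT replicate 1 and at 2.71, 1.72, 0 and 1.13 in the others, and *Lrg1* was at 22.8 FPKM against 3.36, 0.936, 0.788 and 1.38. *Il6* and *Il1b* were listed at 0 in all 5 mice, and *Tnf* did not exceed 0.717 FPKM. Limits of detection were not estimated for these genes, so a value of 0 does not show that the RNA was absent. Of the tested genes of NF-kB and cytokine signaling, 13 of 34 (38.2%) had their highest value in WT replicate 1, against 28.4% of all tested genes. What sets this mouse apart was not tested.

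**Figure D2:**
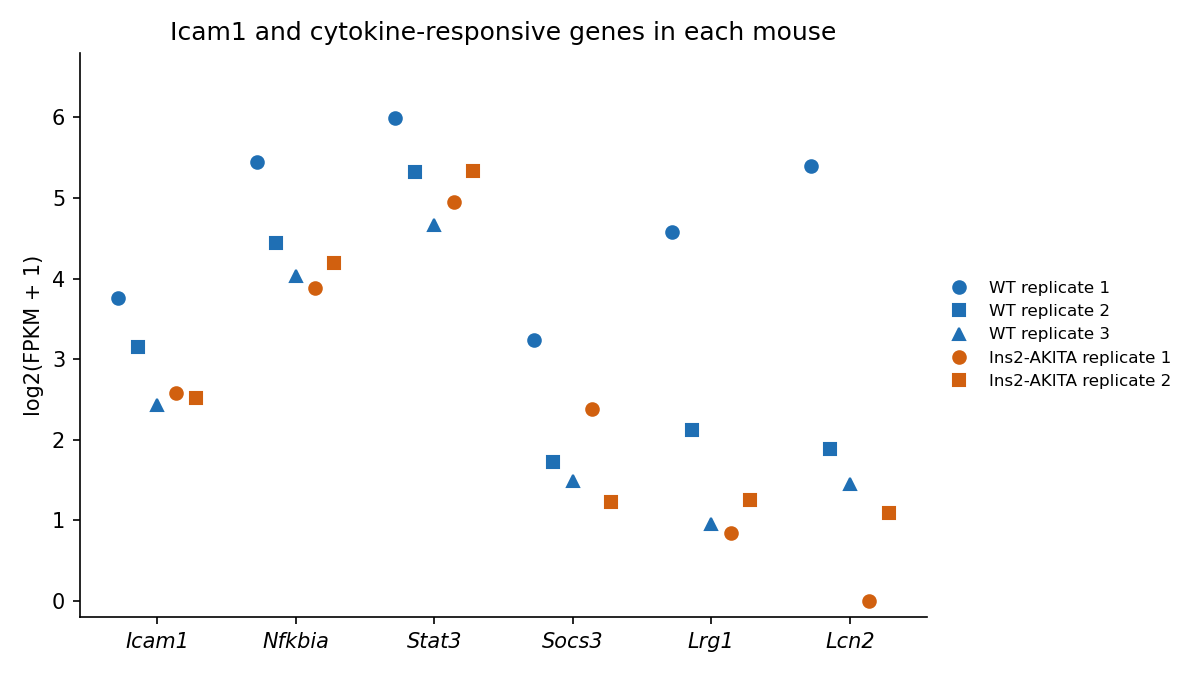
The vertical axis gives log2(FPKM + 1) of *Icam1* and 5 cytokine-responsive genes, with 1 point per mouse (blue, WT; orange, Ins2-AKITA). WT replicate 1 is the highest point for each gene, from 8.47 FPKM for *Socs3* to 62.7 FPKM for *Stat3*, while the other WT mice lie among or near the Ins2-AKITA mice.

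*Icam2* (ENSMUSG00000001029, chromosome 11 from 106238970 to 106249389, minus strand) is a ligand of the same integrin that endothelium makes constitutively. It was at 16.1, 14.4 and 18.9 FPKM in the WT mice against 17.7 and 7.30 FPKM in the Ins2-AKITA mice. Ins2-AKITA replicate 2 was the lowest of the 5 mice, and Ins2-AKITA replicate 1 fell among the WT values. The log2 fold change was -0.48 (standard error 0.38, 95% interval -1.39 to 0.43, adjusted p = 0.90 from limma, exact permutation p = 0.5). It was 0.10 without Ins2-AKITA replicate 2 and -1.06 without Ins2-AKITA replicate 1, so the sign rested on Ins2-AKITA replicate 2. Depending on the transcript, the value of that mouse stood for an estimated 2.60 to 9.90 fragments. The WT mice had 5.25 to 19.8, 5.35 to 20.1 and 15.1 to 56.9, and Ins2-AKITA replicate 1 had 5.59 to 21.0. With the longest transcript, the exact 95% Poisson interval for Ins2-AKITA replicate 2 was 4.80 to 18.4 fragments. The family members *Icam4* and *Icam5* lie beside *Icam1* in the genome. *Icam5*, a neuronal adhesion molecule, was at 32.9, 29.1 and 26.3 FPKM in the WT mice against 32.8 and 36.1 FPKM in the Ins2-AKITA mice, and *Icam4*, of red blood cells, was at 0.516 FPKM in WT replicate 3, at 4.58 in Ins2-AKITA replicate 2 and at 0 in the other mice.

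*Vcam1* (ENSMUSG00000027962, chromosome 3 from 115812938 to 115832606, minus strand), the ligand of the integrin VLA-4, had the largest positive log2 fold change of the 7 genes. It was at 14.6, 20.0 and 25.8 FPKM in the WT mice against 24.4 and 28.6 FPKM in the Ins2-AKITA mice. Ins2-AKITA replicate 2 was the highest of all mice, and WT replicate 3 lay between both Ins2-AKITA mice. The Ins2-AKITA mean was 1.32-fold higher, and the log2 fold change was 0.41 (standard error 0.28, 95% interval -0.26 to 1.08, adjusted p = 0.90 from limma, exact permutation p = 0.3). *Vcam1* and *Icam1* had log2 fold changes of opposite sign, neither past the test, and WT replicate 1 was the lowest mouse for *Vcam1* and the highest for *Icam1*. Without WT replicate 1 the log2 fold change of *Vcam1* was 0.21.

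The selectins were barely detected. *Sele* (ENSMUSG00000026582, chromosome 1 from 165978365 to 165987808, plus strand) encodes E-selectin, which endothelium makes upon cytokine stimulation. It was at 0.282 FPKM in WT replicate 2, which corresponds to 1.00 fragment, and at 0 in the other 4 mice. A count of 0 allows up to 3 fragments, equal to 0.392 FPKM in WT replicate 3 and between 0.869 and 0.991 FPKM in the others. *Selp* (ENSMUSG00000026580, chromosome 1 from 166045395 to 166080157, plus strand) encodes P-selectin, which endothelium and platelets store in granules, and was at 0.125 FPKM in WT replicate 3 alone, an estimated 1.00 to 1.15 fragments depending on the transcript. Platelet markers, a further source of P-selectin RNA, summed to 5.87 to 14.2 FPKM in the WT mice against 2.91 and 4.85 FPKM in the Ins2-AKITA mice. Most of the sum in the WT mice came from *Itga2b*, at 10.3, 8.47 and 3.27 FPKM against 1.14 and 2.26 FPKM in the Ins2-AKITA mice. *Ppbp* was at 0 in all mice and *Gp9* in 4 of 5, and *Itgb3* had a positive log2 fold change of 0.23. A difference between genotypes was not detectable at this depth for *Sele* or *Selp*. The 250 bases before the RefSeq start of *Sele*, which here directly precede the annotated gene, are shown beside those of *Icam1*, to set an inducible gene that was at or near 0 in all 5 mice next to one that was not. They match chr1:165978115-165978364 of NCBIM37, plus strand. Capitals mark TTCCCAGAA, a match to TTCNNNGAA, at -140 to -132, TGACTCA at -73 to -67 and TATAAA at -49 to -44.
*Sele*: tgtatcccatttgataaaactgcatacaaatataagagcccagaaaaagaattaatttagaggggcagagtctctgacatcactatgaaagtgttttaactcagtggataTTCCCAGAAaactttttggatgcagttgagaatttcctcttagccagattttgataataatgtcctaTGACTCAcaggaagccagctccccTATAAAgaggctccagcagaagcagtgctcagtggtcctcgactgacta
Neither GGAAATTCC nor the longer NF-kB consensus, held by 1.41% of all windows, occurs in this window. Other forms of NF-kB site were not searched, so the window is not shown to lack them. Of all promoter windows, 4.46% and 12.4% held TGACTCA and TATAAA. The STAT-type palindrome is the element that the windows of *Icam1* and *Sele* had in common among the 5 motifs searched.

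Of the chemokines, *Ccl2* (ENSMUSG00000035385, chromosome 11 from 81849073 to 81850955, plus strand), which attracts monocytes, was close to the floor. It was at 2.92 and 1.29 FPKM in WT replicates 1 and 2 and at 0 in WT replicate 3 and both Ins2-AKITA mice. The values above 0 stand for about 2.00 and 1.00 fragments, and 3 fragments would have given 4.53 and 3.99 FPKM in the Ins2-AKITA mice, above anything seen in WT. No fold change is therefore given. Its receptor *Ccr2* did not exceed 0.173 FPKM in any mouse.

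*Cxcl12* (ENSMUSG00000061353, chromosome 6 from 117118553 to 117131385, plus strand) encodes a chemokine that holds leukocytes in the perivascular space through CXCR4. It varied more than any other of the 7 tested genes within the WT mice, with 17.3, 55.9 and 39.3 FPKM, a 3.23-fold range, and was at 40.2 and 28.3 FPKM in Ins2-AKITA mice. Both Ins2-AKITA mice lay between WT replicates 1 and 2. The log2 fold change was -0.00075 (standard error 0.48, 95% interval -1.16 to 1.16, adjusted p = 1.00 from limma, exact permutation p = 0.9), and this interval includes a difference of 1 log2 unit in either direction. Without WT replicate 1 it was -0.46. The scavenging receptor of this chemokine, listed under the older symbol *Cxcr7*, was at 12.2, 5.07 and 8.03 FPKM in the WT mice against 1.56 and 3.84 FPKM in the Ins2-AKITA mice, without overlap of the groups (log2 fold change -1.35 ± 0.46, standard error; exact permutation p = 0.2; limma adjusted p = 0.90). The signaling receptor *Cxcr4* was at 2.25 FPKM in Ins2-AKITA replicate 1 and below 0.5 FPKM in the other mice.

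*Cx3cl1* (ENSMUSG00000031778, chromosome 8 from 97295909 to 97306323, plus strand) encodes fractalkine, a membrane-bound chemokine that neurons make in large amounts and that microglia sense through CX3CR1. It was at 78.7, 73.1 and 67.5 FPKM in the WT mice against 80.2 and 48.3 FPKM in the Ins2-AKITA mice. The WT mice were within a 1.17-fold range, while the Ins2-AKITA mice lay above and below all of them. The log2 fold change was -0.23 (standard error 0.25, 95% interval -0.84 to 0.39, adjusted p = 0.90 from limma, exact permutation p = 0.7), and it was 0.13 without Ins2-AKITA replicate 2. *Cx3cr1* was at 9.78, 19.5 and 19.2 FPKM in the WT mice against 17.5 and 20.2 FPKM in the Ins2-AKITA mice. WT replicate 1, the lowest for *Cx3cr1*, was also the lowest for 7 of the 10 microglia markers, *Cx3cr1* among them.

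*Cd99l2* (ENSMUSG00000035776, chromosome X from 68673235 to 68746024, minus strand) acts late in transmigration, at the endothelial junctions. It was at 13.3, 16.8 and 18.4 FPKM in the WT mice against 21.8 and 18.2 FPKM in the Ins2-AKITA mice, and the lower of the Ins2-AKITA mice was just below WT replicate 3. The log2 fold change was 0.30 (standard error 0.23, 95% interval -0.27 to 0.87, adjusted p = 0.90 from limma, exact permutation p = 0.3), and 0.17 without WT replicate 1 or without Ins2-AKITA replicate 1. *Alcam* (ENSMUSG00000022636, chromosome 16 from 52249109 to 52454187, minus strand), a ligand of CD6 on lymphocytes that neurons express as well, was the steadiest of the 7 genes by standard error. It was at 34.0, 46.5 and 38.7 FPKM in the WT mice against 33.0 and 40.2 FPKM in the Ins2-AKITA mice, and the Ins2-AKITA mice lay on both sides of WT replicate 3. Its log2 fold change was -0.11 (standard error 0.22, 95% interval -0.63 to 0.41, adjusted p = 0.95 from limma, exact permutation p = 0.6). *Cd6* did not exceed 1.11 FPKM.

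The levels of the cell type markers also differed between the mice. Of the 15 endothelial identity genes 14 had a negative log2 fold change, with a median of -0.45, and 5 were lower in both Ins2-AKITA mice than in all WT mice, against 10.3% of all tested genes in this direction. None was called by limma at an adjusted p of 0.05. *Cdh5*, *Robo4*, *Eng* and *Eltd1* were lower at an unadjusted limma p under 0.05, as were 2.93% of all tested genes. Ins2-AKITA replicate 2 was the lowest mouse for 12 of the 15. All 7 astrocyte markers had a positive log2 fold change, with a median of 0.52 and a summed level of 2118 to 2927 FPKM in the WT mice against 3338 and 3933 FPKM in the Ins2-AKITA mice. None of these was called either, and *Aldh1l1* was higher at an unadjusted limma p under 0.05, as were 1.53% of all tested genes. The 7 smooth muscle markers all had a negative log2 fold change, with a median of -0.60. None was called, and *Acta2*, *Myh11* and *Tagln* were lower at an unadjusted limma p under 0.05. In vessel fragments, fewer cells of a type and less RNA per cell cannot be told apart.

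**Figure D3:**
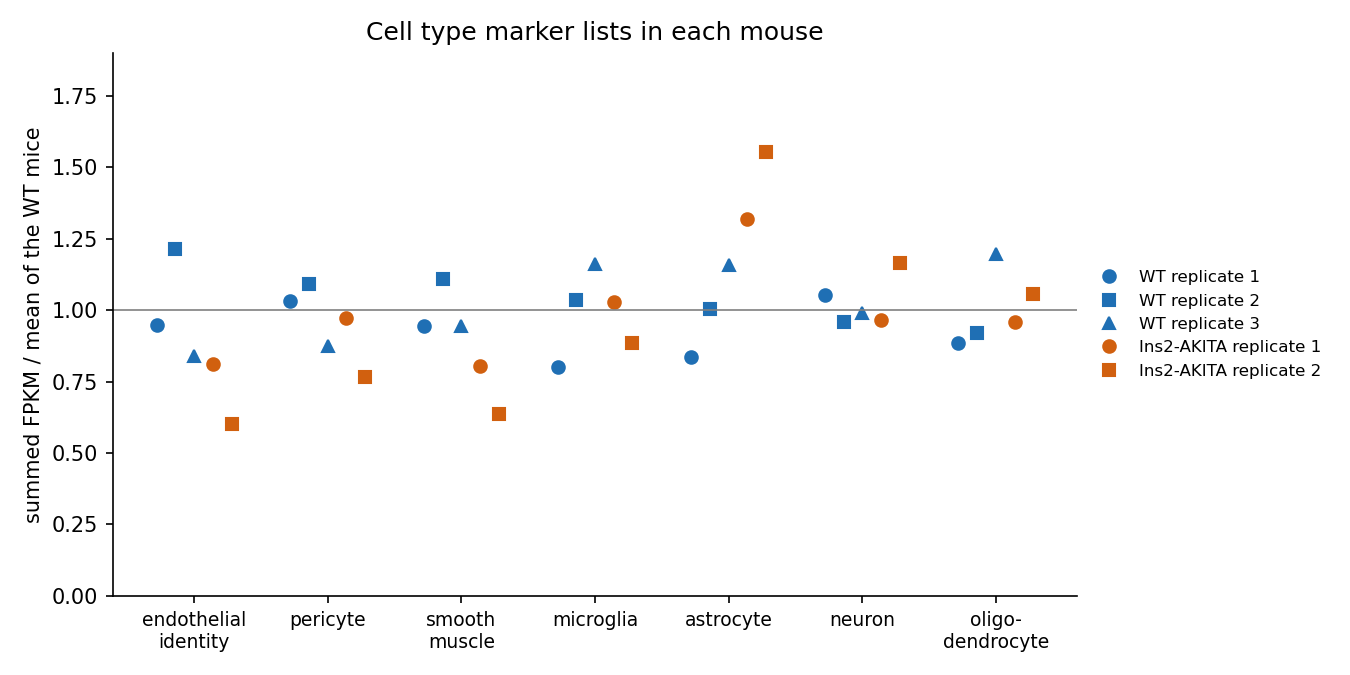
The vertical axis gives the summed FPKM of each marker list divided by the mean of the 3 WT mice, with 1 point per mouse and a line at 1 (blue, WT; orange, Ins2-AKITA). The endothelial list sums to 393 and 531 FPKM in Ins2-AKITA mice, below all WT mice, and the astrocyte list to 3338 and 3933 FPKM, above all of them.

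When the mean log2 value of the endothelial list was subtracted in each mouse, which moved the median log2 fold change of all tested genes from -0.03 to 0.43, the log2 fold changes of *Icam1* and *Icam2* were -0.10 and -0.01. On this scale *Vcam1* was at 0.88 (standard error 0.40, adjusted p = 0.53 from limma) and *Cd99l2* at 0.77. The subtraction added the same amount to the log2 fold change of every gene, so differences relative to the median of all genes did not change. On both scales *Icam1* was at -0.53, *Icam2* at -0.44, *Vcam1* at 0.45 and *Cd99l2* at 0.33 relative to that median. Relative to the list mean of the same mouse, *Vcam1* was at -1.08, -1.04 and -0.26 in the WT mice against -0.24 and 0.41 in the Ins2-AKITA mice, and *Cd99l2* at -1.21, -1.28 and -0.72 against -0.39 and -0.22. On this scale the genotypes overlapped for the other tested members, *Icam1*, *Icam2*, *Cxcl12*, *Cx3cl1* and *Alcam*. All of these values are moved by the list itself, whose mean was lower in both Ins2-AKITA mice than in every WT mouse. Subtracting it therefore shifts every gene upward in the Ins2-AKITA mice relative to the WT mice. Overlap of the genotypes on this log2 scale was not counted over all tested genes, so the separation of *Vcam1* and *Cd99l2* has no background to be compared with. For *Vcam1* the nearest values of the genotypes, -0.26 and -0.24, almost met. The part that the levels of the astrocyte or endothelial markers play in these differences was not tested.

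**Figure D4:**
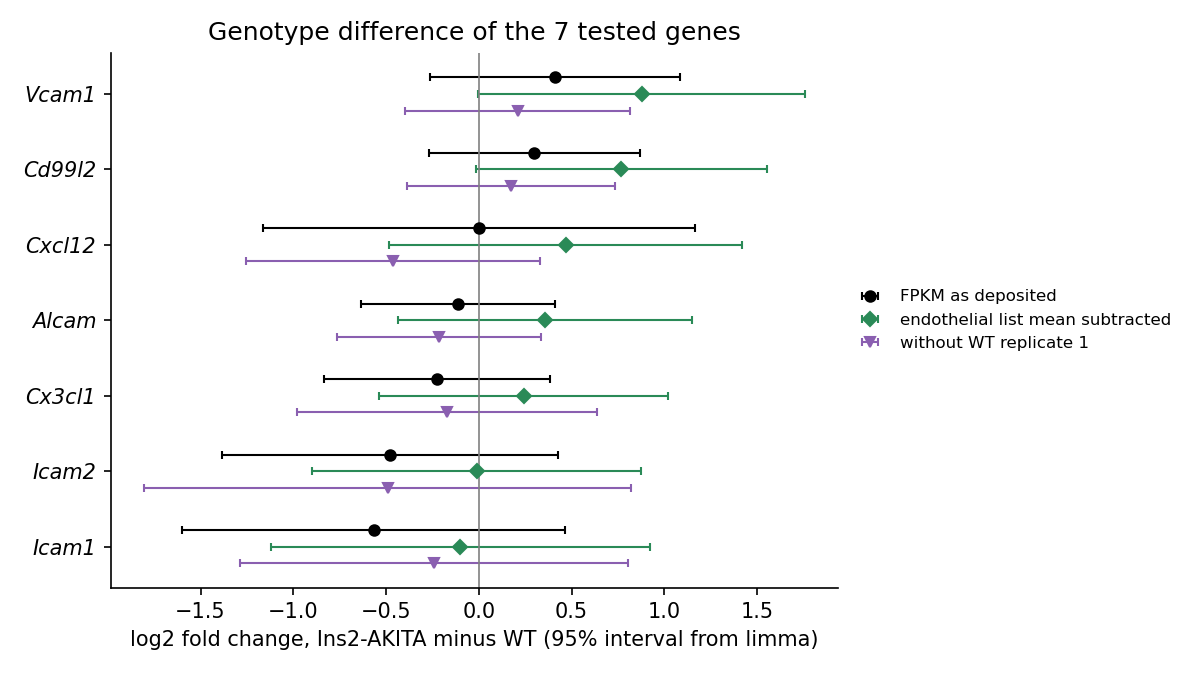
The horizontal axis gives the log2 fold change (Ins2-AKITA minus WT) of the 7 tested genes with 95% intervals from limma, for FPKM as deposited (black), with the endothelial list mean subtracted (green) and without WT replicate 1 (purple). All black intervals include 0, from -0.57 for *Icam1* to 0.41 for *Vcam1*, and subtracting the endothelial list moves each gene up by the same amount.

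The related genes of the same pathways were counted in the same fit, and no gene of these 5 lists was called at an adjusted p of 0.05. At an unadjusted limma p under 0.05 there was 1 gene in each list, beside 4.46% of all tested genes. The lists held 10, 15, 27, 34 and 18 tested genes, in the order below. Of 30 other chemokines 29 were found in the data, and *Ccl28* was not found under this name. Of those found, 12 were at 0 in all mice, among them *Cxcl2*, *Cxcl9* and *Ccl7*, and 10 were tested, with a median log2 fold change of -0.23. *Cxcl14*, a constitutive chemokine, had the highest mean and the largest positive log2 fold change (0.32, standard error 0.23). *Ccl12*, a monocyte attractant, had the largest negative one (-1.58, standard error 0.77). Its values were 8.22, 7.23 and 2.25 FPKM in the WT mice against 3.43 and 0 FPKM in the Ins2-AKITA mice. *Ccl25* was lower at an unadjusted p under 0.05 (0.032 from limma). Of the receptors and leukocyte ligands 15 of 27 were tested, with a median of -0.07. *Glg1*, which can bind E-selectin, was the highest, *Cx3cr1* had the largest positive log2 fold change (0.27, standard error 0.34), and *Cxcr7*, given above with the largest negative one, was the gene lower at an unadjusted p under 0.05. *Selplg*, the ligand of P-selectin, was at 7.56 to 14.6 FPKM in the WT mice against 9.94 to 11.8 FPKM in the Ins2-AKITA mice, and the integrin gene *Itgal* did not exceed 0.774 FPKM.

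Of 29 other endothelial adhesion and transmigration genes 28 were found in the data, and *Cd99* was not found under this name. Of those found, 27 were tested, with a median log2 fold change of -0.21. *Bsg* was the highest at 250 to 510 FPKM in WT. *Icam4* had the largest positive log2 fold change (1.04, standard error 0.88) through Ins2-AKITA replicate 2 alone, and *Emcn*, an endothelial sialomucin that hinders adhesion, the largest negative one (-0.61, standard error 0.36). *Cdh5* was lower at an unadjusted p under 0.05. Of 41 genes of NF-kB and cytokine signaling 34 were tested, with a median of -0.22. *Irak1* was the highest, *Lif* had the largest positive log2 fold change (0.79, standard error 0.87), *Bcl3* the largest negative one (-1.16, standard error 0.59), and *Birc3*, an NF-kB target that restrains cell death, was higher at an unadjusted p under 0.05 (0.036 from limma). All 18 venous and large-vessel genes were tested and 17 had a negative log2 fold change, with a median of -0.53. *Mgp* was the highest, *Gkn3* had the sole positive log2 fold change (0.12, standard error 0.65), *Lcn2* the largest negative one (-2.36, standard error 1.20), and *Sema3g* was lower at an unadjusted p under 0.05 (0.023 from limma). The paper, which tested the reads of these libraries with Cufflinks, reported *Sema3g* as lower after correction for multiple tests. The chemokine-binding receptor of venules, listed under the older symbol *Darc*, was at 12.9, 9.74 and 6.78 FPKM in the WT mice against 5.71 and 5.02 FPKM in the Ins2-AKITA mice (log2 fold change -0.73, adjusted p = 0.90 from limma, exact permutation p = 0.2). The endothelial identity list, with a median of -0.45, had the same sign as these medians and holds some genes of the adhesion list, such as *Cdh5* and *Emcn*, and its part in them was not tested.

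Among the 101 tested genes of these lists, the closest pattern over the 5 mice was measured as the root mean square difference of log2(FPKM + 1) after centring each gene on its own mean. *Alcam* was closest to *Nr2f2* (0.052), *Cx3cl1* to *Bmx* (0.069) and *Cd99l2* to *Jam2* (0.0998). For *Icam1*, named here after the values had been seen, the closest gene was *Nfkbia* (0.18). A small difference can come from genes that hardly vary, as for *Alcam*.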

How the data were processed

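RNA of brain microvascular fragments was sequenced from 3 WT and 2 Ins2-AKITA mice after ribosomal RNA depletion and stranded total RNA library preparation. The authors mapped the reads to NCBIM37 with TopHat2 2.0.4, removed duplicates with Picard 1.92 and used Cufflinks 2.2.1. They deposited FPKM values per Ensembl gene and mouse. Removing duplicates can lower highly expressed genes, and whether strand was used in counting is not given in the sources used here.

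Of 37982 identifiers 37197 matched GENCODE vM1 (NCBIM37), and rows of 1 symbol were summed, giving 34615 symbols. The genotypes were compared on log2(FPKM + 1) by limma 3.58.1 (lmFit, then eBayes with a trend, R 4.3.3) in the 16286 symbols with a mean of at least 1 FPKM, two-sided, with Benjamini-Hochberg adjustment. This scale understates changes of low genes. FPKM was not rescaled. Its sum was 1531575 to 13025900 per mouse, but 362796 to 391008 over nuclear protein-coding genes. Exact permutation tests used the 10 splits of the 5 mice. Python 3.11.15 did the rest, and the fit was tested on simulated data.

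Fragments were estimated from the step between FPKM values of genes with 1 transcript longer than 1000 bases, of which 97.5% to 97.8% per mouse under 10 fragments were whole within 0.05 of a fragment. This gave 1127142 to 2850627 fragments per mouse, and low genes are limited by counting error. For genes with several transcripts the estimate depends on the transcript.

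Promoter letters came from RefSeq (GRCm38.p6 table, 7 of the 10 genes matched) and were placed on NCBIM37 by exact match. *Icam2*, *Vcam1* and *Ccl2* had no entry. The members and lists were chosen with earlier results of these data known. Of each related list the gene with the highest mean, the largest positive and the largest negative log2 fold change were named, and the 3 closest pairs in pattern. Other genes were named for their pairing with a member or after their values were seen.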

Additional observations from a re-analysis of the deposited data

How the results depend on the processing

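None of the tested adhesion and chemokine genes, and no gene of the 5 related lists, passed an adjusted p of 0.05 in limma under any alternative, with the members' smallest adjusted p at 0.27 (TPM). *Vcam1* and *Cd99l2* stayed positive throughout, and *Icam1* stayed negative except with TPM. TPM, which divides by FPKM sums that differ widely between the mice, moved the median of all genes to 1.07. With it *Icam1* was at 0.64, *Icam2* at 0.83, *Cxcl12* at 1.44, *Cx3cl1* at 1.39 and *Alcam* at 1.42, the median of the 7 genes at 1.42, and 58 genes were called higher and 30 lower. With the endothelial list subtracted *Cxcl12* was at 0.47, *Cx3cl1* at 0.24 and *Alcam* and the median at 0.36. *Cxcl12*, near 0, was at 0.0036 with a pseudocount of 0.1, 0.0045 with quantile normalization, 0.025 with median-ratio scaling and 0.0041 with nothing added (chosen after seeing the data). Leaving out each mouse in turn gave -0.91 to -0.24 for *Icam1*, -1.06 to 0.10 for *Icam2*, -0.46 to 0.35 for *Cxcl12*, -0.59 to 0.13 for *Cx3cl1* and -0.25 to 0.027 for *Alcam*, and 0 to 10 genes were called higher and 1 to 6 lower. The single mouse left in an arm is then assumed to vary like the other genotype. *Alcam* was at 0.0047 without WT replicate 2 and 0.027 without Ins2-AKITA replicate 1. *Cxcl12* was at 0.35, 0.11 and 0.25 without WT replicate 2, WT replicate 3 and Ins2-AKITA replicate 2. Without Ins2-AKITA replicate 1, *Icam2* was at -1.06 and *Cx3cl1* at -0.59, and the Ins2-AKITA value of *Icam2* then left rests on few fragments. Of all genes 4 were called lower and 0 higher. These became 1 higher and 2 lower with a constant prior variance, 2 lower with no filter or a filter at 5 FPKM, and 0 with nothing added. Causes were not tested. The labels number the mice of both genotypes without naming pairs, and deviations of same-numbered mice correlated at 0.051 and -0.034. With 2 Ins2-AKITA mice the deviations of 1 mirror those of the other, so the differently numbered mice gave -0.051 and 0.034. These correlations therefore do not show whether mice were paired. With the replicate block *Cxcl12* was at 0.11, *Icam1* at -0.91 and *Vcam1* at 0.60 (adjusted p = 0.60 for both from limma), the median was -0.12, and 5 genes were called. This block treats same-numbered mice as pairs, which the labels do not state. WT replicate 3 has no partner in it, so these log2 fold changes equal those without that mouse. *Ccl2*, *Sele* and *Selp* were left out of these fits, except the one with no filter, because of their low values. Depth limits them: they rest on at most 2.00 fragments in any mouse.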
